A study of Mus musculus with 12 samples.

Results

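The mRNAs of 7 GABA receptor subunits were examined in the RNA bound by YTHDF1, YTHDF2 and YTHDF3 in hippocampal neurons. They are Gabra2, Gabra3 and Gabra5, which encode alpha subunits of the GABA-A receptor, Gabrb1 and Gabrb2, which encode beta subunits of it, and Gabbr1 and Gabbr2, which encode the pair of subunits of the GABA-B receptor. The members were taken by gene symbol and joined to the count table by Ensembl identifier. All 7 were found among the 55573 genes of the table, and all 7 were among the 17126 genes that were abundant enough to be tested (mean of at least 10 normalized counts over the libraries). The rule used their names and no measured value, but the set was drawn up with earlier results of these data known.

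The study used primary hippocampal neurons from newborn C57BL/6 mice, an inbred strain, which were pooled from whole litters with both sexes mixed and lysed after 14 days in culture. Cytosine arabinoside was added on the way to hold back dividing glia. RNA immunoprecipitation followed by sequencing (RIP-seq) recovered RNA with an abcam antibody against each endogenous YTHDF protein (clone EPR22349-16 for YTHDF1, EPR23544-19 for YTHDF2 and EPR21912-3 for YTHDF3). By the methods, total RNA from the same lysates served as Input. Each of the 3 RIPs and Input has 3 replicates, 12 libraries in all. No precipitation with a control antibody was used here, so enriched and depleted mean higher and lower than in Input. A value given with YTHDF1, YTHDF2 or YTHDF3 is the one in the RIP of that protein. The labels give the replicates as separate samples, and the methods take 1 lysate pooled from several wells for each.

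GABA is the main inhibitory transmitter of the forebrain. The GABA-A receptor is a chloride channel built from several subunits, most often alpha, beta and gamma subunits together, and the subunits it holds set where it sits and how fast it responds. The alpha5 subunit is abundant in the hippocampus and is known for receptors outside synapses. The GABA-B receptor is a G protein-coupled receptor that works as a pair, in which the Gabbr1 product binds GABA and the Gabbr2 product couples to the G protein. The YTHDF proteins bind mRNA that carries N6-methyladenosine (m6A), a methylated adenosine which often lies in the sequence GGACT and near stop codons.

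Libraries held between 6020072 counts (a YTHDF2 RIP) and 38909592 (a YTHDF1 RIP). Gabra3 was the thinnest member with 28 to 348 counts per library, and the other 6 had between 64 and 13914 counts. The neuronal label was checked against 8 neuronal markers, all of which were tested and counted in every group, with a summed level of 532 to 752 CPM per kb (counts scaled to the size of the library, and here also to gene length) in Input. Astrocyte markers were present as well and were uneven between replicates. Their summed level over 5 genes, including Gfap and Aqp4, was 43.7, 199 and 463 CPM per kb in Input replicates 1, 2 and 3, and 31.9, 131 and 274 in the YTHDF3 RIP. Microglial markers summed to at most 3.10 CPM per kb in any library, and markers of the oligodendrocyte lineage to 2.27 to 13.9 in Input and 2.38 to 43.8 in the RIPs. The 3 Input libraries followed the same order for all 7 members, with replicate 1 the highest and replicate 3 the lowest. The part of the astrocyte share in this order was not tested. In bulk RNA, fewer cells of a type and less RNA per cell cannot be told apart.

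The replicate numbers did not join the groups as the shared lysates would have it. Deviations from the group mean over all genes were positively correlated between same-numbered Input and YTHDF3 RIP libraries (r of 0.829, 0.528 and 0.804), and between the YTHDF1 and YTHDF2 RIPs for numbers 2 and 3 (0.544 and 0.348, against 0.059 for number 1). Between Input or YTHDF3 RIP and the YTHDF1 or YTHDF2 RIP, same-numbered libraries 2 and 3 had r of -0.348 to -0.267. For number 1 these r were 0.0907 to 0.178, the highest among the 3 libraries of the YTHDF3 RIP but not among those of Input. In number 1, oligodendrocyte lineage markers summed to 2.27 and 2.38 CPM per kb in Input and YTHDF3 RIP, against 20.1 and 24.3 with YTHDF1 and YTHDF2. Whether numbers 2 and 3 were exchanged between the pairs of groups was not tested. Whether the YTHDF1 and YTHDF2 RIPs share lysates with Input was not tested either, which limits their fold changes against Input. Libraries were kept under their labels. A fit with the replicate number as a term (the replicate block) over all 4 groups therefore holds only for the numbers as labelled.

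The genes lie on 6 chromosomes (GRCm38, positions of the annotated gene). Gabra2 (ENSMUSG00000000560) is at chr5:70957597-71095849 on the minus strand, and Gabrb1 (ENSMUSG00000029212) is at chr5:71658113-72149037 on the plus strand. Gabra3 (ENSMUSG00000031343) is at chrX:72432681-72656848, Gabra5 (ENSMUSG00000055078) at chr7:57407672-57510059 and Gabbr2 (ENSMUSG00000039809) at chr4:46662305-46991873, all 3 on the minus strand. Gabrb2 (ENSMUSG00000007653) is at chr11:42419757-42629028 and Gabbr1 (ENSMUSG00000024462) at chr17:37045966-37075067, both on the plus strand. No annotated exon of another gene overlaps their exons on the same strand. Exons of Gabra5 and Gabrb1 meet exons of Gm9962 and Gabra4 on the opposite strand, which the stranded counting keeps apart. Of the stretches of 50 bases (the read length) in the longest protein-coding transcript of each member, none occurred in a transcript of another gene except for Gabra2, where 42 of 5698 (0.737%) did. Those 42 occur in transcripts of 634 other genes, and reads that map to several places were counted for each. What such reads add to the counts of Gabra2 was not tested.

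The word GGACT was searched on the sense strand of those transcripts (GENCODE M21, GRCm38), because it is a common sequence context of m6A. All 7 hold it, with 4 to 10 copies each, as do 92.8% of the 13402 protein-coding genes tested. Its density was highest in Gabra3 at 2.18 per kb and lowest in Gabrb1 at 0.728 per kb, and the median over all these genes was 1.04 per kb. Within 200 bases of the end of the stop codon it occurs in Gabrb2 and Gabbr2 only, that is 2 of 7 members, against 39.9% of all genes. A match says nothing of whether the adenosine is methylated. The windows nearest the stop codon are shown for the 3 alpha subunits, because they are nearly the same sequence, and for the 2 members with the word close to the stop codon. Each is 25 bases, 5′ to 3′ on the mRNA strand, with the word in capitals.
Gabra2, coding sequence, chr5:70973531-70973555, minus strand: ccactgccatGGACTggtttatagc
Gabra3, coding sequence, chrX:72445290-72445314, minus strand: cgacggccatGGACTggttcatagc
Gabra5, coding sequence, chr7:57413701-57413725, minus strand: ccacagccatGGACTggttcattgc
Gabrb2, 3′ UTR, chr11:42626906-42626930, plus strand: tgagaagcaaGGACTggattcctct
Gabbr2, 3′ UTR, chr4:46664629-46664653, minus strand: aggcagagagGGACTcagcacggat
The 3 alpha windows have the same base at 21 of 25 positions, and each pair matches at 22. The adenosine of the word lies 415, 463 and 430 bases upstream of the end of the stop codon in Gabra2, Gabra3 and Gabra5. It lies 27 bases downstream of it in Gabrb2 and 143 in Gabbr2.

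In Input, the members spanned more than a factor of 10 in level per length. Gabra5 had 48.5 ± 10.3 CPM per kb (mean ± SD, n = 3 here and for the other levels), followed by Gabbr2 with 45.7 ± 11.4, Gabbr1 with 41.5 ± 7.94 and Gabra2 with 33.7 ± 8.57. Gabrb1 stood lower at 14.8 ± 5.18 and Gabrb2 at 8.95 ± 3.62, and Gabra3 was the lowest at 3.82 ± 1.03. Much of this spread was shared by all members of a library, so the order was also read from their shares of the summed counts per length of the 7 mRNAs within each Input library. Gabra5 with 22.6 to 27.3% and Gabbr2 with 22.2 to 24.1% overlapped. Gabbr1 with 20.05 to 21.8% lay below both, Gabra2 with 16.4 to 17.5% below Gabbr1, Gabrb1 with 5.94 to 8.46% lower still and Gabrb2 with 3.51 to 5.11% below Gabrb1, with no overlap between these. The exonic lengths used exceed the longest protein-coding transcript by unlike amounts. They were 7764 against 5248 bases for Gabbr1, 6360 against 3989 for Gabrb2 and 2974 against 2671 for Gabra5. The order of levels in each group was read with exonic lengths only, and whether it holds with transcript lengths was not tested. In the YTHDF1 RIP Gabra2 led with 56.4 ± 34.9 CPM per kb, Gabbr2 followed with 52.8 ± 19.8 and Gabra5 had 19.5 ± 5.89. In the YTHDF2 RIP Gabbr1 and Gabbr2 led with 33.0 ± 5.54 and 30.7 ± 6.32, and Gabrb2 fell to 2.38 ± 0.765. In the YTHDF3 RIP Gabbr2 and Gabra2 led with 58.6 ± 20.8 and 51.5 ± 7.85. Gabra3 was the lowest of the 7 in every group.

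**Figure D1:**
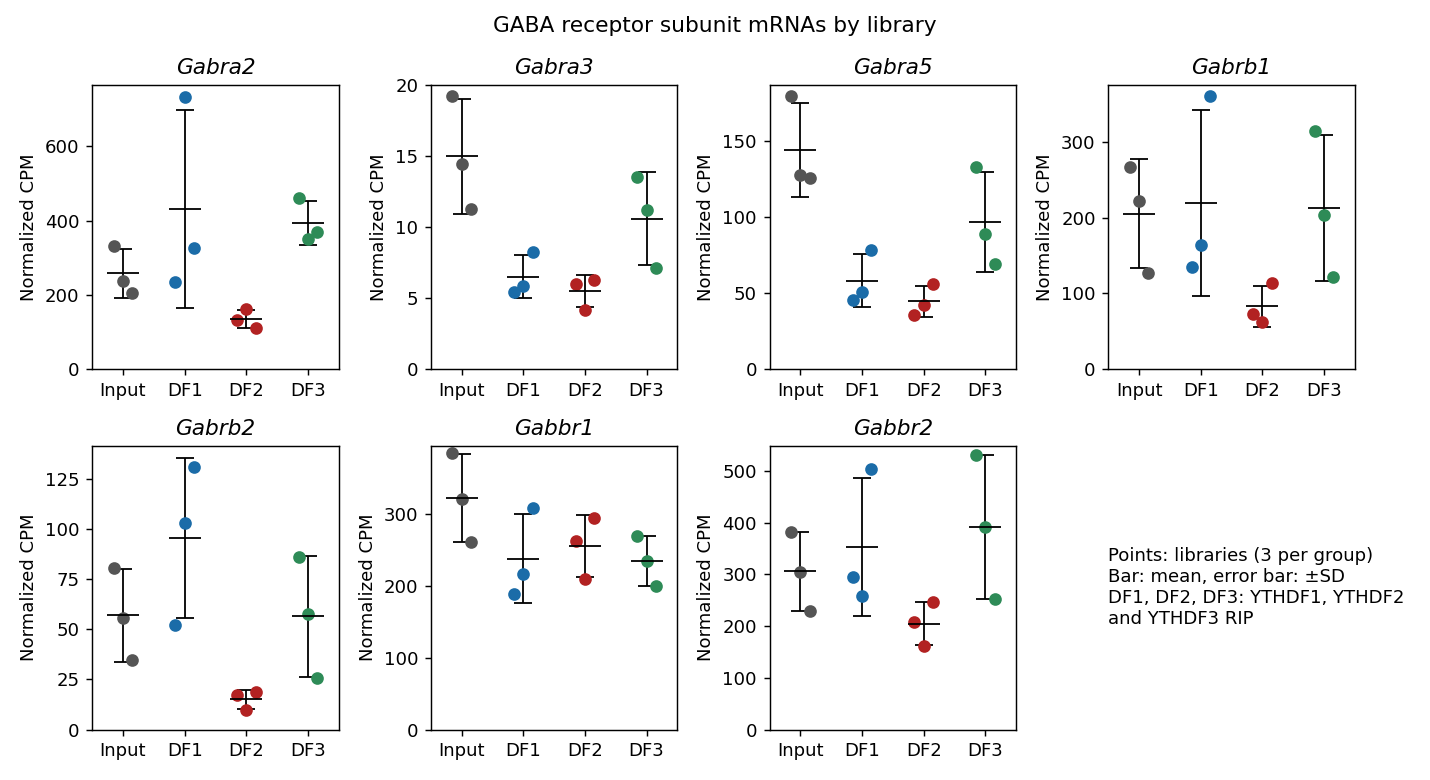
Normalized CPM (vertical axis, starting at 0, a different range in each panel) of each of the 7 subunit mRNAs in the 12 libraries, with points for libraries, a bar for the group mean and error bars for the SD. The 3 YTHDF2 RIP libraries lie below the 3 Input libraries for all 5 GABA-A subunits, and the groups overlap for Gabbr1 and Gabbr2. The share of all genes separated in this way was not computed, so the separation is not read as particular to these subunits.

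The first question was which of the 7 mRNAs each protein enriched or depleted relative to Input. A gene was called where it was at least 25% higher or 20% lower and its adjusted p (Benjamini-Hochberg over all 17126 genes, edgeR's quasi-likelihood test) did not exceed 0.05. None of the 7 was enriched in any RIP by this test. In the YTHDF1 RIP 0 of 7 were enriched and 2 were depleted, where 27.2% of all genes were enriched and 25.8% depleted. In the YTHDF2 RIP 0 of 7 were enriched and 4 were depleted, against a background of 15.7% enriched and 19% depleted. In the YTHDF3 RIP 0 of 7 passed in either direction, against 16.4% enriched and 23% depleted, and 0 of the 7 had an unadjusted p under 0.05. The DESeq2 Wald test also called 0 of 7 in the YTHDF3 RIP, whereas a fit of Input and YTHDF3 RIP alone with the replicate block called 5. The 7 members had a median log2 fold change of 0.10 with YTHDF1, -1.31 with YTHDF2 and -0.01 with YTHDF3, beside 0.02, 0.02 and 0.05 for all genes. When libraries were scaled by their totals only, without TMM factors, the all-gene medians shifted by -0.40, 0.07 and 0.33, and no depletion call of a member was lost.

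The second question was how the RIPs differed from each other, for which a fold change of at least 2 was asked. In the YTHDF1 RIP 3 of 7 members were higher than in the YTHDF2 RIP and 0 were lower, where 11.4% of all genes were higher and 6.1% lower. Between the YTHDF1 and YTHDF3 RIPs 0 of 7 passed, against 10.8% of all genes higher and 3.63% lower in the YTHDF1 RIP. In that comparison 2 of the 7 had an unadjusted p under 0.05, namely Gabra3 and Gabra5, and DESeq2 called 0. In the YTHDF2 RIP 0 of 7 were higher than in the YTHDF3 RIP and 3 were lower, against 3.95% and 1.16% of all genes. The 3 comparisons with Input share its libraries, and the 3 comparisons between RIPs share theirs, so they are not independent of each other.

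**Figure D2:**
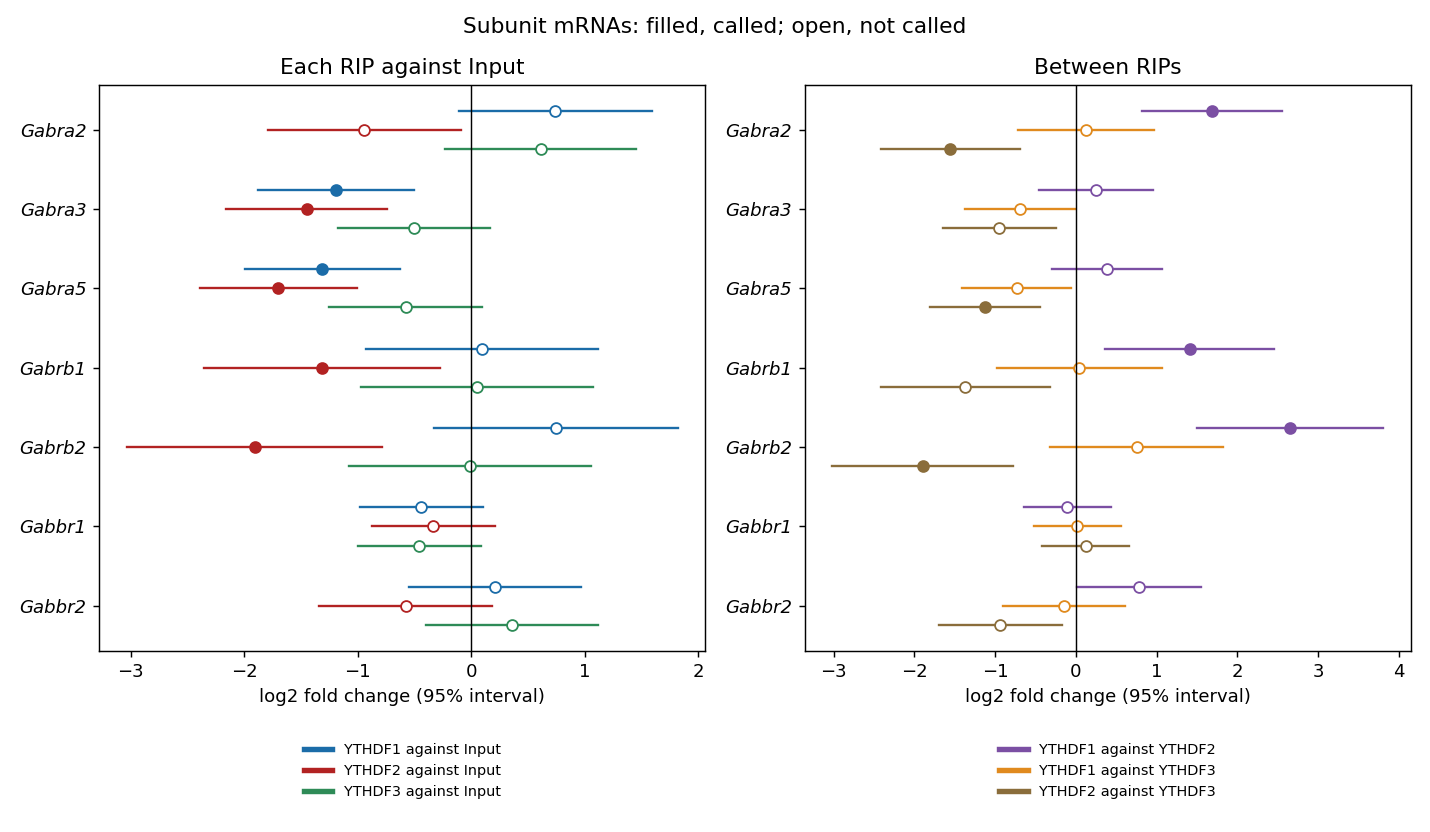
Log2 fold change (horizontal axis, with an approximate 95% interval) of each subunit mRNA, for the RIPs against Input on the left and between RIPs on the right. Filled points were called and open points were not, and on the left every filled point lies below 0, down to -1.91 for Gabrb2 in the YTHDF2 RIP.

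Gabra5, the alpha subunit with the highest level in Input, was depleted in the YTHDF1 and YTHDF2 RIPs. It had 180, 128 and 125 normalized CPM in Input replicates 1 to 3, against 45.6, 50.5 and 78.1 with YTHDF1, 35.6, 41.8 and 55.9 with YTHDF2, and 133, 88.6 and 69.0 with YTHDF3. All libraries of the YTHDF1 and YTHDF2 RIPs were below all Input libraries, whereas the YTHDF3 RIP overlapped with Input. The log2 fold change against Input was -1.31 ± 0.30 (SE) in the YTHDF1 RIP (adjusted p = 0.00319), -1.70 ± 0.30 in the YTHDF2 RIP (adjusted p = 0.00158) and -0.58 ± 0.29 in the YTHDF3 RIP (adjusted p = 0.141). Without YTHDF3 RIP replicate 1, the last value became -0.87 and was called (adjusted p = 0.0426). Gabra5 was lower in the YTHDF2 than in the YTHDF3 RIP by -1.12 ± 0.30 (adjusted p = 0.0417). This call was lost without each library but YTHDF3 RIP replicate 3, with values from -1.32 to -0.83, and with the replicate block over all 4 groups (adjusted p = 0.0669). Of the 11 other settings, this block among them, 8 made the call. Against the YTHDF3 RIP, the YTHDF1 RIP differed by -0.73 ± 0.29 (adjusted p = 0.0959), which became -1.01 and was called without YTHDF1 RIP replicate 3 (adjusted p = 0.0409). Between the YTHDF1 and YTHDF2 RIPs the difference was 0.39, with a 95% interval from -0.29 to 1.07.

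Gabra3, the alpha subunit of lowest level, followed the same order of groups. It had 19.3, 14.4 and 11.2 normalized CPM in Input, 5.42, 5.85 and 8.23 with YTHDF1, 5.98, 4.18 and 6.26 with YTHDF2 and 13.5, 11.2 and 7.08 with YTHDF3. Again every library of the YTHDF1 and YTHDF2 RIPs was below every Input library. It was depleted by -1.19 ± 0.30 on the log2 scale in the YTHDF1 RIP (adjusted p = 0.00567) and by -1.45 ± 0.31 in the YTHDF2 RIP (adjusted p = 0.00414), and it had -0.50 ± 0.29 in the YTHDF3 RIP (adjusted p = 0.195). The depletions of Gabra3 and Gabra5 in both RIPs were called in all 11 other settings and without each of the 6 libraries of the groups compared. Over the 12 libraries the log2 CPM of Gabra3 and Gabra5 had a Pearson r of 0.96, the highest among the 21 pairs of members. This is a description across libraries that share groups and, by the methods, lysates.

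Gabra2, the third alpha subunit, did not follow them. It had 331, 238 and 204 normalized CPM in Input, 234, 734 and 326 with YTHDF1, 132, 161 and 110 with YTHDF2, and 462, 349 and 370 with YTHDF3. YTHDF1 RIP replicate 2 stood far above the other libraries of its group, the YTHDF2 RIP lay wholly below Input and the YTHDF3 RIP wholly above it. The log2 fold change against Input was 0.74 ± 0.37 in the YTHDF1 RIP (adjusted p = 0.11), -0.94 ± 0.37 in the YTHDF2 RIP (adjusted p = 0.0681) and 0.61 ± 0.37 in the YTHDF3 RIP (adjusted p = 0.212), so none of these passed. Without YTHDF1 RIP replicate 1 the first value was 1.04 and was called (adjusted p = 0.0245), and without replicate 2 it was 0.04. The value in the YTHDF2 RIP was called under 6 of the 11 other settings, among them DESeq2 (-0.95, adjusted p = 0.031).

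Between RIPs, Gabra2 gave calls. It was 3.21-fold higher in the YTHDF1 than in the YTHDF2 RIP (log2 difference 1.68 ± 0.38, adjusted p = 0.00634), a call kept in every other setting and without each library. It was lower in the YTHDF2 than in the YTHDF3 RIP by -1.55 ± 0.37 (adjusted p = 0.0305). That second call was lost without any single one of the 6 libraries, with values from -1.70 to -1.42 and adjusted p from 0.0694 to 0.0971.

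Gabrb2, a beta subunit that pairs with several alpha subunits, showed the largest depletion among the members. It had 80.4, 55.8 and 34.5 normalized CPM in Input, 52.2, 103 and 131 with YTHDF1, 17.3, 9.56 and 18.5 with YTHDF2 and 86.0, 57.7 and 25.9 with YTHDF3. The YTHDF2 RIP was below every library of the other 3 groups, and the YTHDF1 and YTHDF3 RIPs overlapped with Input. The log2 fold change against Input was -1.91 ± 0.49 in the YTHDF2 RIP (adjusted p = 0.0111), 0.75 ± 0.47 in the YTHDF1 RIP (adjusted p = 0.199) and -0.01 ± 0.46 in the YTHDF3 RIP (adjusted p = 0.988). The YTHDF2 call was made in all 11 other settings and without each library. Gabrb2 was 6.29-fold higher in the YTHDF1 than in the YTHDF2 RIP (log2 difference 2.65 ± 0.50, adjusted p = 0.00234), again in every setting and without each library. It was lower in the YTHDF2 than in the YTHDF3 RIP by -1.90 ± 0.49 (adjusted p = 0.0379), and this was lost without each library but YTHDF3 RIP replicate 3, with values from -2.07 to -1.46. The replicate block over all 4 groups also ended that call (adjusted p = 0.0669). Of the 11 other settings, this block among them, 8 made it.

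Gabrb1, the longest member with 13838 exonic bases, was depleted in the YTHDF2 RIP. It had 268, 222 and 127 normalized CPM in Input, 135, 164 and 361 with YTHDF1, 72.9, 62.0 and 113 with YTHDF2 and 315, 204 and 122 with YTHDF3. The YTHDF2 RIP lay below the other groups, while the YTHDF1 and YTHDF3 RIPs ranged across the Input values. The log2 fold change in the YTHDF2 RIP was -1.31 ± 0.45 (adjusted p = 0.0416), against 0.10 ± 0.44 in the YTHDF1 RIP (adjusted p = 0.87) and 0.05 ± 0.44 in the YTHDF3 RIP (adjusted p = 0.937). The YTHDF2 call depended on single libraries. Without Input replicate 1, Input replicate 2, YTHDF2 RIP replicate 1 or YTHDF2 RIP replicate 2 the value was -1.08, -1.25, -1.23 and -1.14 and was no longer called, nor was it with the replicate block over all 4 groups (-1.34, adjusted p = 0.0595). Of the 11 other settings, this block among them, 9 made the call.

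Gabrb1 was also higher in the YTHDF1 than in the YTHDF2 RIP, by 1.41 ± 0.45 on the log2 scale (adjusted p = 0.0382). This was not called without YTHDF1 RIP replicate 3 (0.85), YTHDF2 RIP replicate 1 (1.33) or YTHDF2 RIP replicate 2 (1.24), nor with the replicate block over all 4 groups (1.41, adjusted p = 0.0593). Of the 11 other settings, 6 called it.

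The pair of GABA-B subunits gave no call in any of the 6 comparisons in the fit over 4 groups without pairing. Gabbr1 had 385, 321 and 262 normalized CPM in Input, 190, 216 and 308 with YTHDF1, 263, 210 and 295 with YTHDF2 and 270, 235 and 200 with YTHDF3, so that every RIP overlapped with Input. Its log2 fold change was -0.44 ± 0.23, -0.33 ± 0.23 and -0.46 ± 0.23 with YTHDF1, YTHDF2 and YTHDF3, with adjusted p of 0.137, 0.292 and 0.145. The YTHDF1 value became a call without Input replicate 3 (-0.68, adjusted p = 0.0456) and without YTHDF1 RIP replicate 3 (-0.67, adjusted p = 0.0372). In the paired fit of Input and YTHDF3 RIP alone it was called depleted (-0.39, adjusted p = 0.00103). Between RIPs its differences were at most 0.12 in size, with 95% intervals between -0.64 and 0.66.

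Gabbr2 had 382, 305 and 229 normalized CPM in Input, 296, 259 and 504 with YTHDF1, 208, 162 and 246 with YTHDF2 and 530, 392 and 252 with YTHDF3. All RIPs overlapped with Input, and the YTHDF2 RIP was below both other RIPs. The log2 fold change was 0.21 ± 0.33 in the YTHDF1 RIP (adjusted p = 0.621), -0.58 ± 0.33 in the YTHDF2 RIP (adjusted p = 0.199) and 0.36 ± 0.33 in the YTHDF3 RIP (adjusted p = 0.42). In the paired fit of Input and YTHDF3 RIP alone it was called enriched (0.38, adjusted p = 0.00111). The YTHDF1 RIP exceeded the YTHDF2 RIP by 0.78 ± 0.33 (adjusted p = 0.106), and the YTHDF2 RIP was below the YTHDF3 RIP by -0.93 ± 0.33 (adjusted p = 0.104).

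Because both products are needed for one receptor, the ratio of Gabbr1 to Gabbr2 counts per length was also taken within each library, where scaling between libraries cancels. It was 0.867, 0.905 and 0.983 in Input, 0.552, 0.720 and 0.526 with YTHDF1, 1.09, 1.12 and 1.03 with YTHDF2 and 0.439, 0.517 and 0.681 with YTHDF3. The YTHDF1 and YTHDF3 RIPs were wholly below Input and the YTHDF2 RIP wholly above it. The mean log2 ratio differed from Input by -0.63, 0.24 and -0.77, and each had p = 0.1 in a two-sided exact permutation test, which is the smallest p that 3 against 3 libraries can give. The ratio shows unequal change of the pair and not which of them changed.

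**Figure D3:**
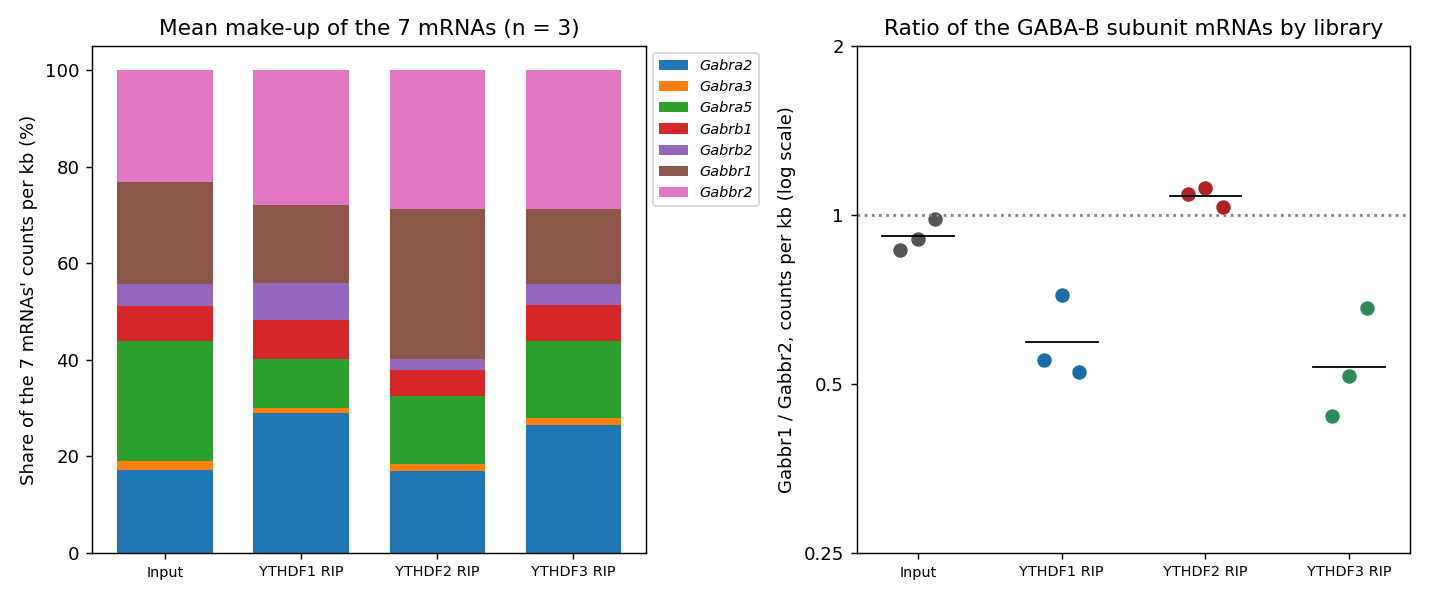
Left, the mean share of each member in the summed counts per kilobase of the 7 mRNAs in each group (percent, n = 3). Right, the ratio of Gabbr1 to Gabbr2 counts per kilobase in each library (log scale, points for libraries, bar for the mean of the log2 ratios, dotted line at equal counts per kilobase), which is 0.867 to 0.983 in Input, below that in the YTHDF1 and YTHDF3 RIPs and above it in the YTHDF2 RIP.

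As shares of the summed counts per length of the 7 mRNAs, Gabra5 took 24.8 ± 2.37% in Input, 10.3 ± 1.88% with YTHDF1, 14.1 ± 2.18% with YTHDF2 and 16.1 ± 0.990% with YTHDF3 (mean ± SD, n = 3 each). Gabbr1 took 21.2 ± 1.03% in Input and 31.0 ± 1.89% in the YTHDF2 RIP, and Gabrb2 4.42 ± 0.820% in Input and 2.22 ± 0.535% in the YTHDF2 RIP. Gabra2 took 17.1 ± 0.563% in Input and 26.5 ± 5.02% in the YTHDF3 RIP. The ranges of RIP and Input libraries did not overlap for any of these, and they did for others, such as Gabra2 in the YTHDF2 RIP (11.95 to 22.5% against 16.4 to 17.5%). Shares within a library depend on each other, so a share rises where the others fall. The share of Gabbr1 rose with YTHDF2 although its log2 fold change there was -0.33.

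The YTHDF3 RIP libraries moved with the Input libraries of the same number, and for this RIP the calls depended on how the pairing was fitted. When only these 6 libraries were fitted, with the replicate block, 5 of the 7 members were called in place of 0. With the block over all 4 groups 0 of 7 were called for this RIP, with adjusted p of 0.19 for Gabra2 and 0.443 for Gabbr2. In the paired fit of the 6 libraries alone, Gabra2 (0.69, adjusted p = 4.48e-06) and Gabbr2 (0.38, adjusted p = 0.00111) were enriched. Gabra5 (-0.55, adjusted p = 2.01e-05), Gabra3 (-0.45, adjusted p = 0.00209) and Gabbr1 (-0.39, adjusted p = 0.00103) were depleted, and Gabrb1 and Gabrb2 were at 0.07 and -0.02. Over all genes this fit called 6212 enriched and 5507 depleted, so that most genes passed in one direction or the other. The same libraries fitted without that term gave a call for Gabra2 only (0.65, adjusted p = 0.0497).

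The summed levels of some marker lists also differed from Input. The 8 neuronal markers summed to 301 to 385 CPM per kb in the YTHDF2 RIP, below the 532 to 752 of Input in every library. There 2 of the 8 were called depleted, where 19% of all genes were. Tubb3 (44.1 to 100 against 121 to 255 in Input) and Neurod6 (27.5 to 37.9 against 51.0 to 108) lay wholly below Input, and the other neuronal markers overlapped with it. Interneuron markers, 6 of 7 tested, summed to 37.7 to 92.1 CPM per kb in the YTHDF2 RIP and 56.0 to 124 in the YTHDF1 RIP against 113 to 328 in Input, with 3 of the 6 depleted in each. In the YTHDF3 RIP they summed to 39.9 to 181 CPM per kb, and 2 of the 6 were depleted. The members of this list did not move alike. Sst had 72.2 to 190 CPM per kb in Input, 20.5 to 23.9 with YTHDF1 and 17.4 to 28.2 with YTHDF2. Gad1, Gad2 and Slc32a1 overlapped with Input in every RIP and were not called, and Gad1 had 9.58 to 33.1 in Input and 11.9 to 50.8 with YTHDF1. Markers of the oligodendrocyte lineage, 4 of 5 tested, summed to 15.4 to 43.8 CPM per kb in the YTHDF1 RIP and 22.0 to 35.7 in the YTHDF2 RIP, above the 2.27 to 13.9 of Input in every library, and to 2.38 to 27.1 in the YTHDF3 RIP. Of the 4, 1 was enriched and 1 depleted with YTHDF1, and 0 were called with YTHDF2 or YTHDF3. All genes had 27.2% enriched and 25.8% depleted with YTHDF1, and 19% and 23% depleted with YTHDF2 and YTHDF3. The counts of markers called were not tested against these shares. The part of these markers in the values of the members was not tested.

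Gene length moved with the fold changes too. Over all genes tested, exonic length and log2 fold change had a Spearman correlation of 0.459, 0.379 and 0.519 with YTHDF1, YTHDF2 and YTHDF3, and 6 of the 7 members are longer than the median gene tested (Gabra3 at 3924 bases is longer than 50.5% of them and Gabra5 at 2974 bases longer than 37.8%). Protein-coding genes within 20% of the length of Gabrb2 had a median log2 fold change of 0.26 in the YTHDF2 RIP, and those within 20% of Gabrb1 0.49, against -1.91 and -1.31 for these members. For Gabra5 the corresponding medians were -0.33 in the YTHDF1 and -0.16 in the YTHDF2 RIP, against -1.31 and -1.70. With the length trend of each library removed, 4, 6 and 1 of the 7 were called in the 3 RIPs, all of them depleted. Gabbr1 was among them in every RIP (-1.02, -0.65 and -0.87).

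**Figure D4:**
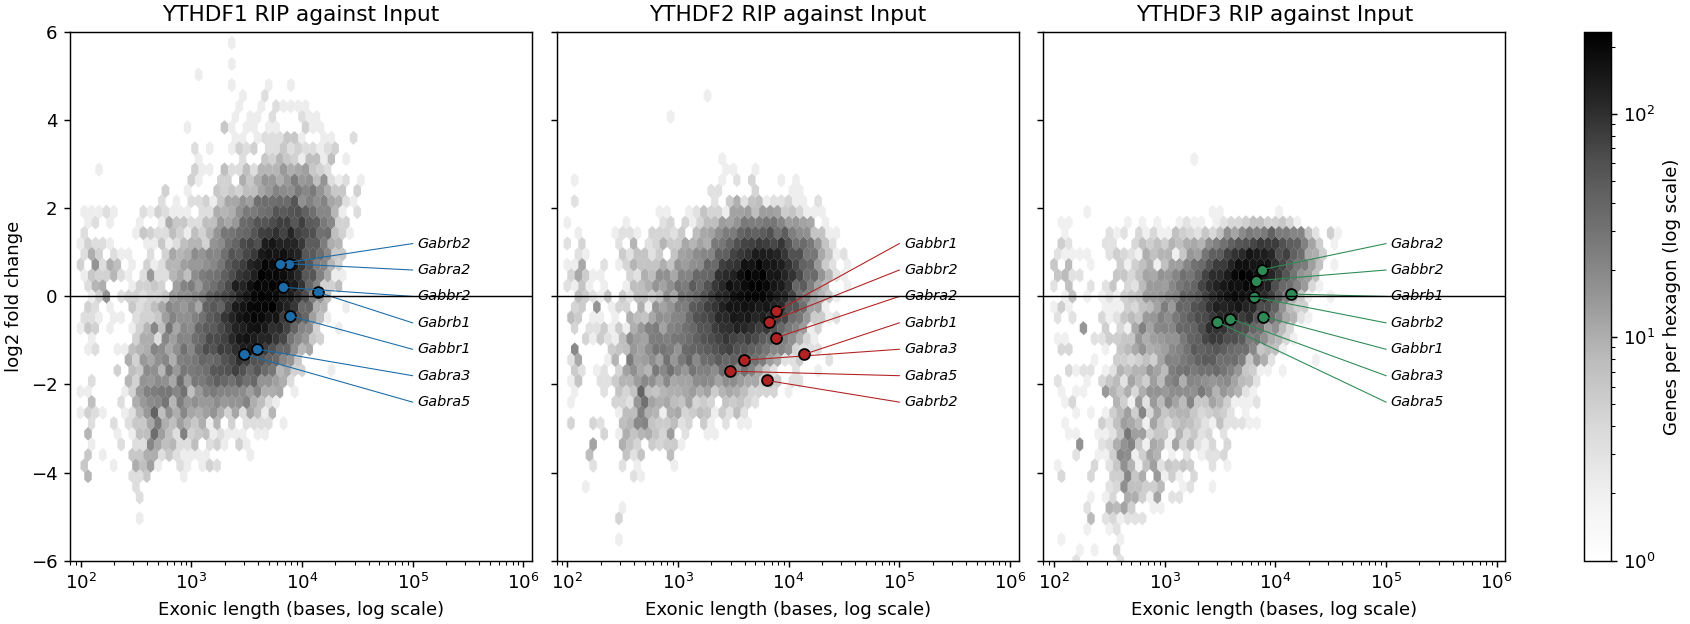
Log2 fold change against Input (vertical axis) by exonic length of the gene (horizontal axis, log scale) for the genes tested, as hexagons shaded by the number of genes (a small number of genes under 100 bases or past a log2 fold change of 6 in size fall outside the axes), with the 7 members marked. In the YTHDF2 RIP all 7 lie below 0, from -0.33 for Gabbr1 to -1.91 for Gabrb2.

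A list of further subunits of the GABA-A family was read beside the members. Of its 11 genes, 7 were below the count minimum, and of the 4 tested 2 were enriched and 0 depleted with YTHDF1, 0 and 1 with YTHDF2, and 0 and 0 with YTHDF3. All genes had 27.2% enriched and 25.8% depleted with YTHDF1, 15.7% and 19% with YTHDF2 and 16.4% and 23% with YTHDF3, and with 4 genes these counts are not read as differing from those shares. The medians of the 4 were 0.64, -0.76 and -0.34. With YTHDF3, 0 of the 4 had an unadjusted p under 0.05. Gabra4 was depleted in the YTHDF2 RIP (-1.11 ± 0.35, adjusted p = 0.0291), a call lost without Input replicate 1 (-0.999), Input replicate 2 (-0.99) or YTHDF2 RIP replicate 2 (-0.83).

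Gabrg1 and Gabrg3, which encode gamma subunits, were enriched in the YTHDF1 RIP. Gabrg3 had 26.4, 15.9 and 10.9 normalized CPM in Input and 30.2, 110 and 101 in the YTHDF1 RIP, an enrichment of 2.18 ± 0.56 (adjusted p = 0.00646). Gabrg1 had 1.98, 6.44 and 5.68 in Input and 7.49, 17.1 and 16.2 in the YTHDF1 RIP, with 1.54 ± 0.46 (adjusted p = 0.0144). Neither was called once the length trend was removed (1.18 and 0.94). In the YTHDF2 and YTHDF3 RIPs Gabrg3 had -1.43 ± 0.57 and -0.58 ± 0.54, and Gabrg1 -0.41 ± 0.48 and -0.42 ± 0.46, none of them called in edgeR's test. Gabrg3 in the YTHDF2 RIP was called depleted under 6 of the 11 other settings, among them DESeq2 (-1.45, adjusted p = 0.0257), no filter on low counts (-1.53, adjusted p = 1.15e-05) and the length trend removed (-1.85, adjusted p = 0.0222). In the YTHDF3 RIP it was called depleted in the paired fit alone (-0.58, adjusted p = 0.000159). Gabrd, a subunit of receptors outside synapses, was at -0.26 ± 0.29, 0.10 ± 0.30 and -0.26 ± 0.29 in the 3 RIPs, and Gabra4 at -0.43 ± 0.34 and 0.13 ± 0.34 in the YTHDF1 and YTHDF3 RIPs, and none of these passed.

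The proteins that assemble, anchor and traffic these receptors had calls in both directions. Of 23 genes listed, all tested, 10 were enriched and 4 depleted with YTHDF1, 4 and 4 with YTHDF2, and 6 and 4 with YTHDF3, with medians of 0.94, 0.0011 and 0.48. Beside the shares of all genes given for the further subunits, the counts with YTHDF2 are near the background and are not read as a result about the list, and the counts with YTHDF1 and YTHDF3 were not tested against it. The depleted genes were the same 4 in every RIP, namely Gabarap, Gabarapl1 and Gabarapl2, which encode small ubiquitin-like proteins of receptor trafficking and autophagy, and Clptm1. Gabarap was lowest with 54.3 to 62.7 normalized CPM in Input against 4.79 to 16.6, 8.72 to 13.7 and 5.11 to 7.11 in the 3 RIPs, and log2 fold changes of -2.60 ± 0.38, -2.40 ± 0.39 and -3.25 ± 0.39. Gabarapl1 had -1.62 ± 0.26, -1.45 ± 0.26 and -1.43 ± 0.26, Gabarapl2 -1.42 ± 0.29, -1.22 ± 0.29 and -1.61 ± 0.29, and Clptm1 -0.75 ± 0.19, -0.73 ± 0.19 and -0.94 ± 0.19.

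Among the enriched genes of this list, Kctd12 and Kctd16, whose products are auxiliary subunits of the GABA-B receptor, rose by 2.26 ± 0.37 and 2.23 ± 0.48 on the log2 scale in the YTHDF1 RIP (adjusted p = 0.000403 and 0.00226). In the YTHDF2 RIP they had -0.53 ± 0.35 and -0.58 ± 0.47, and in the YTHDF3 RIP 0.77 ± 0.35 and 0.25 ± 0.46, none of them called in edgeR's test. Both were called enriched in the paired fit of Input and YTHDF3 RIP alone (0.83 and 0.33, adjusted p = 8.83e-08 and 0.0123), and Kctd12 also with library size alone (1.11), without a filter (0.90) and in the fit of these 2 groups without the block (0.83). Plcl1 had 1.46 ± 0.52 in the YTHDF2 RIP (adjusted p = 0.0473), with overlapping libraries, and this call was lost under 5 of 11 other settings and without Input replicate 1 (1.27), Input replicate 3 (1.17), YTHDF2 RIP replicate 1 (1.246) or YTHDF2 RIP replicate 3 (1.32). Nlgn2, a postsynaptic adhesion protein of inhibitory synapses, Lhfpl4, which ties GABA-A receptors to it, and Plcl2 were enriched in all 3 RIPs and are named here after their values were seen. Nlgn2 had 2.09 ± 0.28, 0.93 ± 0.27 and 1.21 ± 0.27, Lhfpl4 1.247 ± 0.25, 1.00 ± 0.25 and 0.76 ± 0.25, and Plcl2 2.21 ± 0.31, 1.32 ± 0.30 and 1.09 ± 0.30. The YTHDF2 call of Nlgn2 was lost without Input replicate 2 (0.90), Input replicate 3 (0.84) or YTHDF2 RIP replicate 3 (0.68). The YTHDF3 call of Lhfpl4 was lost without Input replicate 2 (0.74), Input replicate 3 (0.73), YTHDF3 RIP replicate 1 (0.66) or YTHDF3 RIP replicate 2 (0.74). With the length trend removed, the YTHDF3 calls of Lhfpl4 (0.50, adjusted p = 0.116) and Plcl2 (0.76, adjusted p = 0.0631) were lost.

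The genes of GABA synthesis, vesicular loading, uptake and breakdown, 7 of 7 tested, had 0 calls in every RIP in edgeR's test, and 0, 1 and 0 of them had an unadjusted p under 0.05. Their medians were -0.13, -0.54 and -0.09. Gad1 and Gad2, the enzymes that make GABA, are interneuron markers as well, and had 0.59 and -0.48 with YTHDF1, -0.39 and -1.44 with YTHDF2 and 0.41 and -0.34 with YTHDF3, with SE of 0.65 to 0.67.

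**Figure D5:**
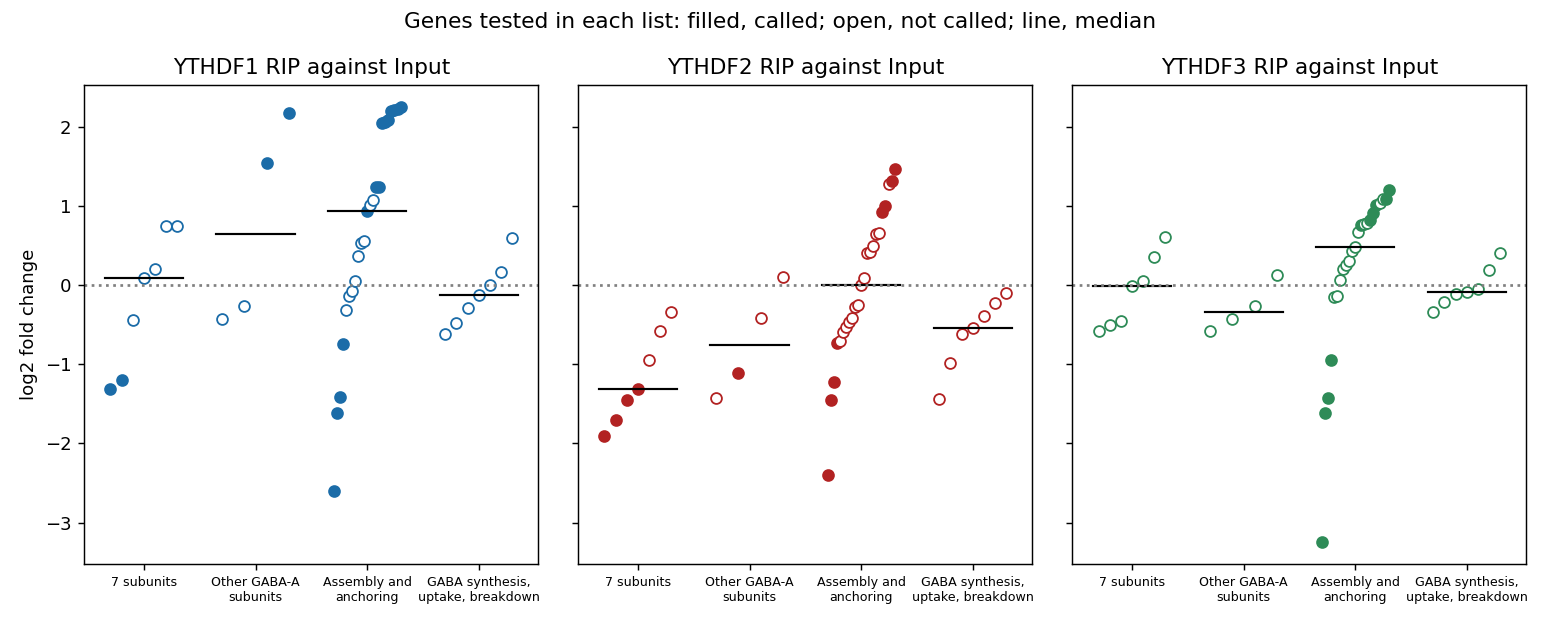
Log2 fold change against Input (vertical axis) of each tested gene in the 4 lists, with filled points for called genes, open points for the others and a line at the median. The members and the further GABA-A subunits lie mostly below 0 in the YTHDF2 RIP, with medians of -1.31 and -0.76, and the assembly and anchoring genes spread to both sides in all RIPs.

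For each member, the 2 protein-coding genes with the most similar profile of log2 CPM over the 12 libraries were taken among the 9931 that averaged 100 normalized counts or more. They were Kif2a (Pearson r = 0.95) and Prkacb (0.93) for Gabra2, Arl8b (0.98) and Sgtb (0.96) for Gabra3, and Gnal and Ifngr2 (both 0.97) for Gabra5. Slc25a12 and St8sia3 (both 0.97) were nearest to Gabrb1, and Samd12 and Celf4 (both 0.96) to Gabrb2. Scg5 and Slc17a7 (both 0.94) were nearest to Gabbr1, and Kcnma1 (0.98) and Zfr (0.97) to Gabbr2. Among the members themselves, Gabrb1 correlated with Gabbr2 at 0.95 and with Gabrb2 at 0.91, and the lowest value was -0.12 for Gabra2 and Gabbr1. These likenesses carry no test, since the libraries share groups and composition and, by the methods, lysates.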

How the data were processed

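Raw counts per gene for the 12 libraries were deposited by the authors. Per the labels and the methods, they trimmed reads with cutadapt 3.4, aligned them to mm10 with STAR 2.7.7a and then removed duplicates with UMI-tools 1.1.1. The remaining reads were counted with featureCounts 2.0.1 over Ensembl exons, by strand. Reads that overlap several genes or map to several places were counted for each, which can raise the counts of genes with close copies. The authors' tables of their own comparisons hold fold changes and p-values that were not used, and gene symbols and biotypes were read from one of them.

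Genes with a mean of at least 10 normalized counts were kept (17126 of 55573). TMM factors and a single quasi-likelihood model over 4 groups were fitted in R 4.3.3 (edgeR 4.0.16), with Benjamini-Hochberg adjustment over all genes tested. Calls needed a fold change of 1.25 or more against Input, or of 2 or more between RIPs, and an adjusted p no higher than 0.05. SE was taken as the size of the log2 fold change over the root of F, so it and the 95% intervals (8 residual degrees of freedom) are approximate. Normalized CPM used the TMM-scaled library size, and CPM per kb divided this by exonic length. For log2 CPM the prior count was 2. P-values measure the spread between these samples. The script was tested on simulated counts with known changes.

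Alternatives were the DESeq2 1.42.0 Wald test, DESeq2 size factors, library size alone, TMM over protein-coding genes, a minimum mean of 50 or none, a replicate block, a loess correction for exonic length with and without it, fits of 2 groups alone with and without the block, and leaving out each library. The methods take the 3 RIPs and the Input of a replicate from 1 pooled lysate, so the numbers should pair the libraries. Same-numbered deviations from the group means correlated above 0.1 in all 3 pairs for YTHDF3 and Input only (0.829, 0.528 and 0.804). The main test had no term for pairing in any comparison, and pairing entered only in the alternatives with the replicate block.

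The 7 members, every tested gene of a list of further GABA-A subunits (some genes first placed on it are not reported here, and its counts are without them), and up to 3 called genes of largest change per comparison from the other lists are named. The members and lists were chosen with earlier results of these data known.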

Additional observations from a re-analysis of the deposited data

Results flagged for a closer look

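Between RIPs, 4 members differed by the test of the difference itself, in edgeR's quasi-likelihood fit over all genes. Gabra2, Gabrb1 and Gabrb2 were higher in the YTHDF1 than in the YTHDF2 RIP, by 1.68, 1.41 and 2.65 on the log2 scale, with all 3 YTHDF1 libraries above all 3 YTHDF2 libraries. Gabra2, Gabra5 and Gabrb2 were lower in the YTHDF2 than in the YTHDF3 RIP, by -1.55, -1.12 and -1.90, again with no overlap. The differences of Gabra2 and Gabrb2 between the YTHDF1 and YTHDF2 RIPs were called without each library in turn, whereas that of Gabrb1 was called without 3 of the 6 libraries, that of Gabra2 against the YTHDF3 RIP without 0 of 6, and those of Gabra5 and Gabrb2 against the YTHDF3 RIP without 1 of 6.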

How the results depend on the processing

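The depletions of Gabra3 and Gabra5 in the YTHDF1 and YTHDF2 RIPs and of Gabrb2 in the YTHDF2 RIP were called under all 11 alternatives and without each of 6 libraries, as were the differences of Gabra2 and Gabrb2 between the YTHDF1 and YTHDF2 RIPs. The number of members called moved as follows, and the cause was not tested. With library size alone it was 1 for YTHDF3 against Input, 2 for YTHDF1 against YTHDF3 and 6 for YTHDF2 against YTHDF3, and without a filter the last was 6. With the replicate block over all 4 groups, with numbers as labelled, it was 1 for YTHDF2 against YTHDF3. With the length trend removed it was 4 for YTHDF1 and 1 for YTHDF3 against Input, and with the block added 4, 1 and, for YTHDF2 against YTHDF3, 1. In fits of 2 groups alone it was 1 for YTHDF3 against Input and 6 for YTHDF2 against YTHDF3 without the block, and 5 and 1 with it. The other paired fits moved no count of members by over 1.5 times. Leaving out libraries gave 0 to 1 for YTHDF3 against Input, 0 to 1 for YTHDF1 against YTHDF3 and 0 to 2 for YTHDF2 against YTHDF3. With library size alone, levels became 64.4 CPM per kb for Gabra2 and 37.8 for Gabbr1 in the YTHDF3 RIP and 1.24 for Gabra3 in the YTHDF1 RIP. Counts limit Gabra3 most, with 28 in one YTHDF2 library.

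Log2 fold changes that were not called in the report turned sign as follows, of which Gabrb1 in the YTHDF1 RIP was called with the length trend removed. With the DESeq2 Wald test, they were Gabrb2 0.011 for YTHDF3 against Input, and Gabrb1 -0.026 and Gabbr1 -0.057 for YTHDF1 against YTHDF3. With DESeq2 size factors, they were Gabrb2 0.0099 for YTHDF3 against Input, and Gabrb1 -0.026 and Gabbr1 -0.058 for YTHDF1 against YTHDF3. With library size alone, they were Gabrb1 -0.33 and Gabbr2 -0.20 for YTHDF1 against Input, and Gabrb2 0.28 and Gabrd 0.073 for YTHDF3 against Input, and Gabra3 -0.23 and Gabra5 -0.091 for YTHDF1 against YTHDF2, and Gabra2 -0.64, Gabrb1 -0.68 and Gabbr1 -0.72 for YTHDF1 against YTHDF3, and Gabbr1 -0.13 for YTHDF2 against YTHDF3. With TMM over protein-coding genes, they were Gabrb1 -0.064 for YTHDF1 against Input, and Gabrb1 -0.0090 for YTHDF3 against Input, and Gabrb1 -0.055 and Gabbr1 -0.077 for YTHDF1 against YTHDF3. Without a filter, they were Gabrd -0.0089 for YTHDF2 against Input, and Gabrb2 0.098 for YTHDF3 against Input, and Gabra2 -0.035, Gabrb1 -0.088 and Gabbr1 -0.14 for YTHDF1 against YTHDF3, and Gabbr1 -0.10 for YTHDF2 against YTHDF3. With a minimum mean of 50, they were Gabrb1 -0.026 for YTHDF1 against Input, and Gabrb1 -0.084 and Gabbr1 -0.11 for YTHDF1 against YTHDF3. With the length trend removed, they were Gabrb1 -1.10, Gabbr2 -0.25 and Gabrd 0.034 for YTHDF1 against Input, and Gabrb1 -0.62 and Gabra4 -0.15 for YTHDF3 against Input, and Gabra2 -0.0072, Gabrb1 -0.48 and Gabbr1 -0.16 for YTHDF1 against YTHDF3. With the length trend removed and the replicate block, they were Gabrb1 -1.09, Gabbr2 -0.24 and Gabrd 0.028 for YTHDF1 against Input, and Gabrb1 -0.63 and Gabra4 -0.16 for YTHDF3 against Input, and Gabra2 -0.11, Gabrb1 -0.46 and Gabbr1 -0.15 for YTHDF1 against YTHDF3. In 2 groups alone without a block, they were Gabrb1 -0.026 for YTHDF1 against Input, and Gabrb2 0.014 for YTHDF3 against Input, and Gabra2 -0.089, Gabrb1 -0.15 and Gabbr1 -0.18 for YTHDF1 against YTHDF3. In 2 groups alone with the replicate block, they were Gabrb1 -0.11 for YTHDF1 against Input, and Gabra2 -0.24, Gabrb1 -0.21 and Gabbr1 -0.20 for YTHDF1 against YTHDF3. Leaving out each library turned the sign of others, with ranges of Gabrb2 -0.45 to 0.34, Gabrb1 -0.34 to 0.34, Gabra4 -0.061 to 0.34 and Kctd16 -0.051 to 0.60 for YTHDF3 against Input, and Gabrb1 -0.46 to 0.35 and Gabbr2 -0.14 to 0.40 for YTHDF1 against Input, and Gabrd -0.065 to 0.31 for YTHDF2 against Input, and Gabbr1 -0.33 to 0.036 for YTHDF1 against YTHDF2, and Gabra2 -0.62 to 0.43, Gabbr1 -0.21 to 0.16, Gabrb1 -0.51 to 0.44 and Gabbr2 -0.50 to 0.13 for YTHDF1 against YTHDF3.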

Other observations

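The order of replicates in the astrocyte markers differed between the RIPs. Their summed level was 43.7, 199 and 463 CPM per kb in Input replicates 1, 2 and 3 and 31.9, 131 and 274 in the YTHDF3 RIP, whereas it was 49.6, 220 and 126 in the YTHDF1 RIP and 106, 257 and 189 in the YTHDF2 RIP. The interneuron markers summed to 328, 208 and 113 CPM per kb in Input, 181, 103 and 39.9 in the YTHDF3 RIP, 124, 56.0 and 118 in the YTHDF1 RIP and 81.2, 37.7 and 92.1 in the YTHDF2 RIP. Replicate 3 was thus the highest for astrocyte and the lowest for interneuron markers in Input and the YTHDF3 RIP, and replicate 2 was so in the YTHDF1 and YTHDF2 RIPs. Same-numbered libraries had deviations that correlated at 0.0907, -0.267 and -0.322 between YTHDF1 RIP and Input, and at 0.178, -0.323 and -0.313 between YTHDF2 RIP and Input. Whether numbers 2 and 3 were exchanged between these pairs of groups was not tested. Nor was it tested whether the YTHDF1 and YTHDF2 RIPs share lysates with Input, and libraries were kept under their labels.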
